A study of Arabidopsis thaliana with 4 samples.

Results

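The Casparian strip and suberin genes of Arabidopsis thaliana are 33 genes of the root barriers, taken by identifier. The list named the regulators SHR, SCR and MYB36, the CASP genes, ESB1, PER64, genes of SGN and CIF signalling, and genes for suberin synthesis, suberin export and suberin MYB factors. They are 33 of the 32833 genes in the count table. Messenger RNA of seedlings of the Col0 ecotype, aged 7 days, was sequenced with a stranded kit in 2 libraries of genotype cml39 -/- and 2 of genotype WT, called cml39 1, cml39 2, wt 1 and wt 2 here. The labels do not give the kind of cml39 allele or whether the 2 samples of a genotype were grown apart, so p-values measure only the spread between these samples, which may be technical.

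The endodermis is the innermost cortical layer of the root, and it seals the space between its cells with the Casparian strip, a lignin ring in the wall. CASP proteins mark the membrane where the ring forms, a peroxidase and an NADPH oxidase take part in lignin polymerisation there, and a receptor kinase with small peptide ligands monitors whether the ring is closed. Older endodermal cells add suberin, a polyester of long fatty acids, fatty alcohols, glycerol and hydroxycinnamic acids, whose building blocks are made in the cell and exported. In bulk seedlings, fewer cells of a type and less RNA per cell cannot be told apart.

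CML39 (AT1G76640), the calmodulin-like gene named by the mutant label, had 45 and 21 counts in the libraries labelled cml39 and 0 counts in both libraries labelled wt. These counts show no loss of transcript under the mutant label, but with 0 counts in wt there is no level from which to judge a loss. Counts per gene also cannot tell a whole transcript from a part of it. All directions below therefore follow the labels and name those libraries only. The libraries held 19331639 to 24101882 counts, and 3 counts, the limit that a count of 0 allows, correspond to 0.113 to 0.164 CPM, the depth-scaled read count used below, on library sizes scaled by TMM. Library cml39 2 stood apart in the sum of 10 seed storage and embryo genes, though not in each gene. The sum was 184 CPM there, against 3.12 CPM in cml39 1 and 2.18 and 2.44 CPM in wt 1 and wt 2. EM6, 1 of the 10, had 2.26 CPM in cml39 1 and 2.41 CPM in cml39 2. Results that it moves are given without it as well.

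Promoters are shown for 4 of the members that hold the motifs searched in the 250 bases before each annotated gene start. They were read from RefSeq TAIR10.1 in the direction of the gene. Capitals mark ACCAAC and ACCTAC, forms of the AC element bound by many MYB proteins, and ACGTG, the core of the abscisic acid response element, on either strand. The CASP1 window lies at chr2:15160800-15161049 (minus strand), that of CASP4 at chr5:1876884-1877133 (plus strand), that of ABCG2 at chr2:15675921-15676170 (minus strand) and that of GPAT5 at chr3:3595444-3595693 (plus strand).
CASP1: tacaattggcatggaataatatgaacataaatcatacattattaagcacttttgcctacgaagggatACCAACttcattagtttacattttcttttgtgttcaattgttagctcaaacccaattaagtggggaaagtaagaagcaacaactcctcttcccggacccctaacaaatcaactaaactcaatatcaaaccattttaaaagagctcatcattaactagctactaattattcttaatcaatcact
CASP4: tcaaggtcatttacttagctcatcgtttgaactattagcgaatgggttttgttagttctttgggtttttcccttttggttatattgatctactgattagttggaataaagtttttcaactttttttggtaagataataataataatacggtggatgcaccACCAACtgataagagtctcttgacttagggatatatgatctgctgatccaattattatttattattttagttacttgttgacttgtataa
ABCG2: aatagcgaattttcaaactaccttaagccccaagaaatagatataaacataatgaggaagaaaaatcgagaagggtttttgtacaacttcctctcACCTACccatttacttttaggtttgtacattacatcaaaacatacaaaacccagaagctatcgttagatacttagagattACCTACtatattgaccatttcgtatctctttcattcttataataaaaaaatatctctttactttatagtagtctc
GPAT5: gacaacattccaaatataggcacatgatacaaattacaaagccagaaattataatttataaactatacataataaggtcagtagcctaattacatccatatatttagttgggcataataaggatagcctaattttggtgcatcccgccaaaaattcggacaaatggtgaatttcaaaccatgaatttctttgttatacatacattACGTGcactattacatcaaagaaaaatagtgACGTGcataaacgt

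The share of member promoters with each motif is set beside that of all promoters. ACCAAC occurred in 3 of the 33 (9.09%), against 11.5% of the 27443 promoters of protein-coding genes, and the 3 were CASP1, CASP4 and AT1G61590. ACCTAC occurred in 2 (6.06%, against 4.60%), ABCG2 with 2 copies and CYP86B1 with 1. ACGTG occurred in 6 (18.2%, against 22.9%), among them MYB41 with 3 matches, GPAT5 with 2 and MYB53 with 2. In MYB41 and MYB53, 2 of these are the 2 strands of 1 CACGTG. No 2 matches overlap in the 4 windows shown, although ACGTG can overlap itself on the other strand. A match describes letters and no binding.

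Most members were lower in the libraries labelled cml39. Of the 33 genes 31 had enough counts to be tested, and 26 of these fell and 0 rose in edgeR's quasi-likelihood test at an adjusted p under 0.05. Over all 19834 tested genes 21.6% fell, 19.3% rose and 40.9% did either. Scaling by the upper quartile, which shifted the median of all genes by -0.148 (log2), split the calls over all genes into 2704 higher and 5403 lower, against 3822 and 4285, and left 27 members lower and 0 higher. DESeq2 gave 26 members lower and 1 higher, KCS20, where it called 15.6% and 14.9% of its genes, and limma-voom gave 25 and 0. At an unadjusted p under 0.05 in edgeR, 28 members differed, of which KCS20 was the 1 that was higher. The median log2 change of the 31 was -1.70, or 3.24-fold lower, against -0.00519 for all tested genes.

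The libraries of the 2 labels were mostly separate for these genes. In 28 of the 31 both cml39 libraries lay below both wt libraries, which held for 38.0% of all tested genes, and in SCR and KCS20 both lay above, which held for 36.0%. In 7 of the 31, among them CASP4, CASP5, AT2G16385, FAR5, FACT and MYB53, a cml39 library was under the count limit of the filter, so these entered the test through wt, and counts over tested members lean towards genes that are lower. With 1 library left out the number of members called lower changed, and so did the number of genes called over the whole table. Both were fewest without wt 1, and the ranges are given below. Values in parentheses below are log2 changes of cml39 over wt with their SE and edgeR's adjusted p.

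**Figure D1:**
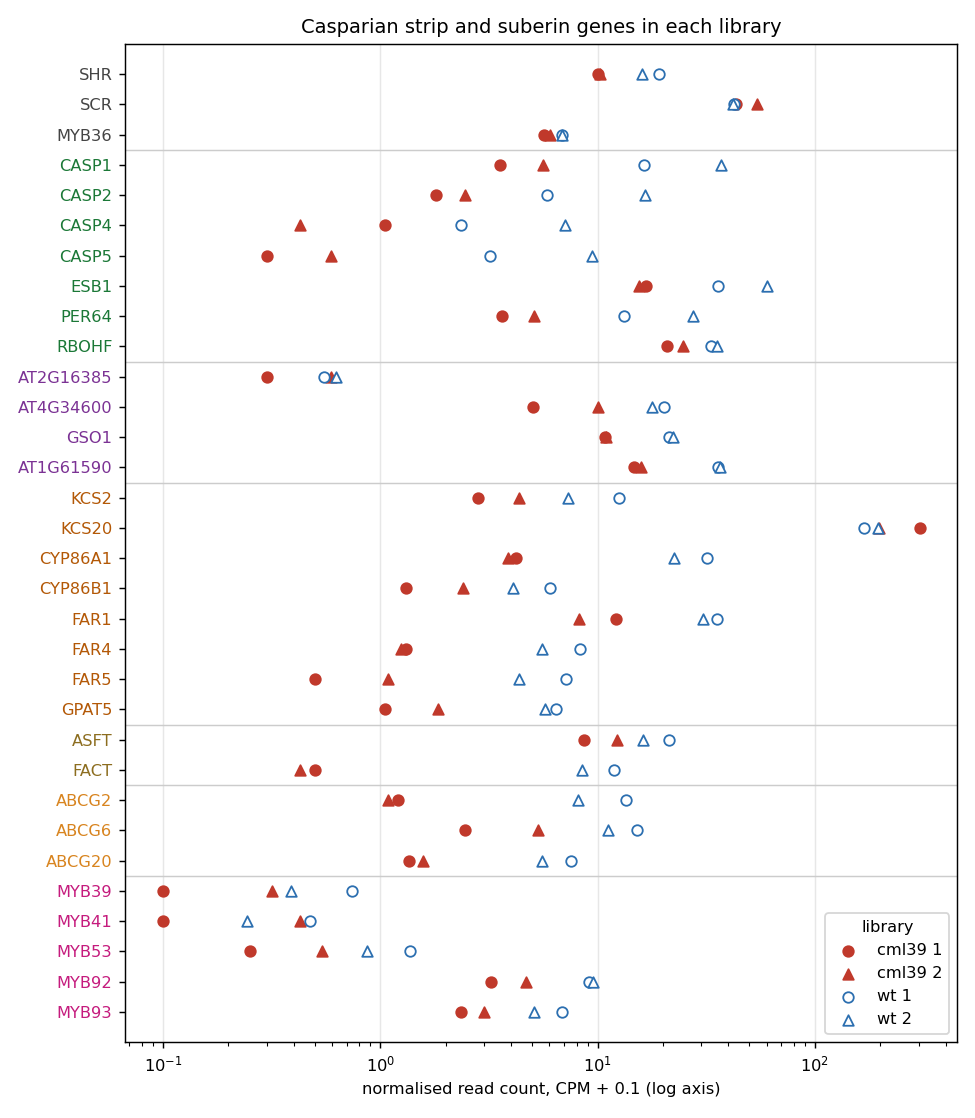
Normalised read count (CPM + 0.1, log axis) of the members, 1 not shown, in the 4 libraries, grouped by role, with filled red symbols for cml39 and open symbols for wt. The cml39 symbols lie left of both wt symbols for the tested members shown other than SCR, KCS20 and AT2G16385, and KCS20 is the most abundant member, between 169 and 303 CPM.

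Of the 3 regulators of endodermal identity 1 fell. SHR, a GRAS transcription factor that moves from the stele into the neighbouring layer and specifies the endodermis, had 9.91 and 10.2 CPM in cml39 libraries, against 19.1 and 15.8 CPM in wt libraries. It fell by 0.80 ± 0.16 on the log2 scale (SE, n = 2 libraries per label, adjusted p = 0.00652, edgeR), and did not pass without wt 1 (-0.65, adjusted p = 0.0767). SCR, the GRAS partner of SHR, had 43.2 and 54.2 CPM in cml39 libraries, against 42.5 and 41.8 CPM in wt libraries. Its log2 difference of 0.21 ± 0.13 did not pass (adjusted p = 0.246). The difference was 0.36 without cml39 1 and 0.037 without cml39 2. MYB36, the MYB factor that switches on Casparian strip genes, had 5.58 and 5.91 CPM in cml39 and 6.75 and 6.74 CPM in wt (-0.23 ± 0.20, adjusted p = 0.382). The groups did not overlap for any of the 3, which alone says little with 2 libraries per label. Over all tested genes 38.0% lay wholly below wt, as SHR and MYB36 did, and 36.0% wholly above, as SCR did.

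All 8 genes of the Casparian strip machinery fell, with a median log2 change of -2.50. CASP1 (AT2G36100, TAIR10.1 chr2:15159591-15160799, minus strand, 3 exons) had 3.47 and 5.53 CPM in cml39 libraries, against 16.3 and 36.7 CPM in wt libraries. CASP2 had 1.71 and 2.35 CPM in cml39 libraries, against 5.74 and 16.5 CPM in wt libraries. For both of these genes of four-pass membrane proteins the groups did not overlap, and wt 2 was the highest library. CASP4 had 0.956 and 0.328 CPM in cml39 libraries, against 2.25 and 6.98 CPM in wt libraries. CASP5 had 0.201 and 0.492 CPM in cml39 libraries, against 3.11 and 9.33 CPM in wt libraries. Summed over the 5 CASP genes, cml39 libraries had 7.04 and 9.19 CPM and wt libraries 31.7 and 78.3 CPM, a 6.77-fold lower mean in cml39.

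CASP5 changed most among the 5, with a log2 change of -4.15 ± 0.69 (SE, adjusted p = 0.00275). CASP4 stood at -2.80 ± 0.67 (adjusted p = 0.0131), CASP1 at -2.56 ± 0.40 (adjusted p = 0.00219) and CASP2 at -2.44 ± 0.50 (adjusted p = 0.00691). Single libraries moved these sizes by over 1.5 times. Without wt 2 the log2 changes were -1.87 for CASP1, -1.51 for CASP2, -3.17 for CASP5 and -1.80 for CASP4, which was then no longer called (adjusted p = 0.0915). Without wt 1 they were -3.41 for CASP4 and -4.74 for CASP5. CASP4 was at -3.77 without cml39 1, CASP5 at -4.89 without cml39 2, and CASP4 missed the threshold in limma-voom (adjusted p = 0.0521).

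The genes of the proteins that work beside the CASPs fell as well. ESB1, a dirigent-domain protein of the strip, had 16.6 and 15.5 CPM in cml39 libraries, against 35.8 and 60.4 CPM in wt libraries (-1.58 ± 0.23, adjusted p = 0.00167). PER64, the peroxidase placed at the strip, had 3.52 and 4.98 CPM in cml39 libraries, against 13.1 and 27.3 CPM in wt libraries (-2.24 ± 0.36, adjusted p = 0.00246; -1.64 without wt 2). For both, wt 2 was again the highest library. RBOHF, an NADPH oxidase that also acts in many other tissues, had 414 and 450 counts in cml39 libraries, against 880 and 736 counts in wt libraries. Its log2 change, -0.59 ± 0.13 (adjusted p = 0.00972), was the smallest of the 8, and it did not pass without wt 2 (adjusted p = 0.0595).

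**Figure D2:**
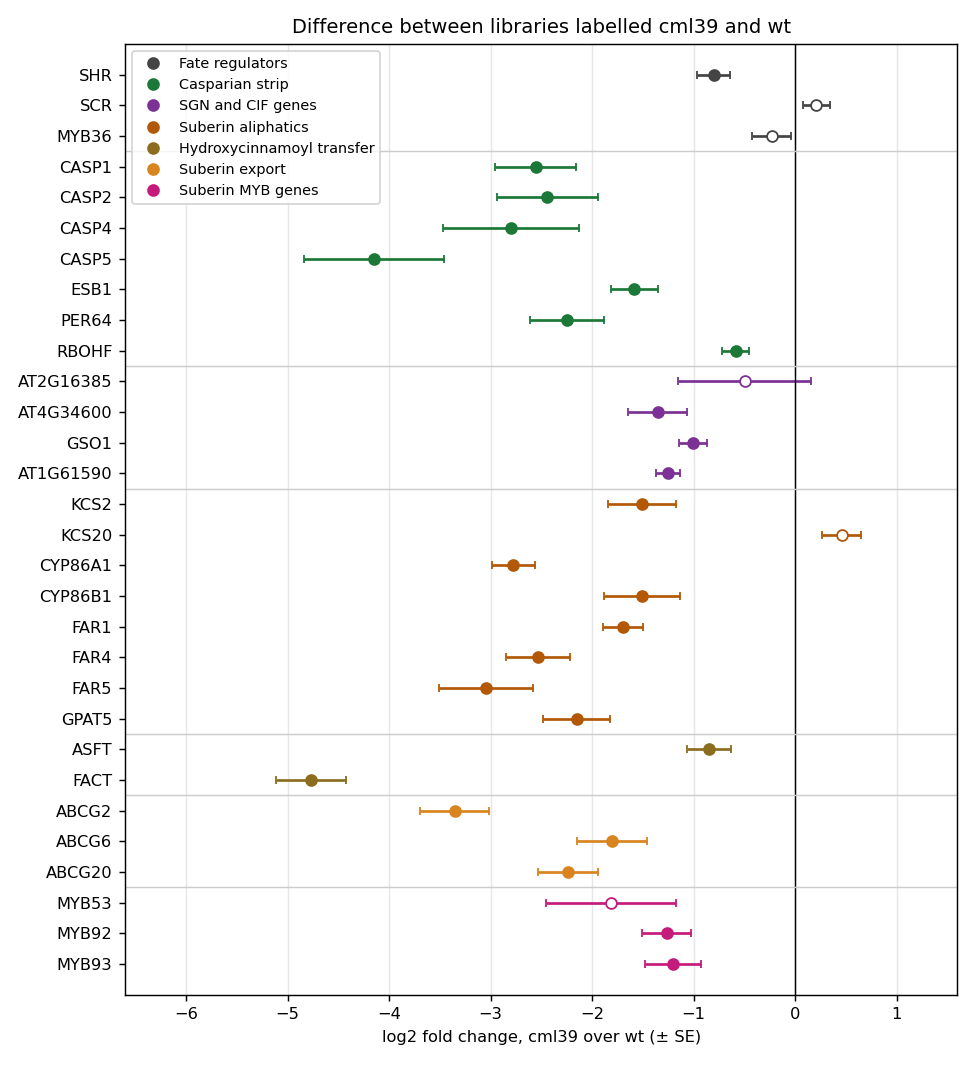
Log2 fold change of cml39 over wt with its SE for the tested members, 1 not shown, grouped by role; filled symbols passed at an adjusted p under 0.05 and open symbols did not. FACT (-4.77) and CASP5 (-4.15) lie farthest left of 0, and SCR and KCS20 are the 2 members right of 0.

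The SGN and CIF signalling genes are GSO1, a receptor kinase of the peptides that report gaps in the ring, and 3 genes that RefSeq gives no symbol. Of these 4 genes 3 fell. GSO1 had 10.8 and 10.8 CPM in cml39 libraries, against 21.2 and 22.2 CPM in wt libraries, and fell by 1.01 ± 0.14 on the log2 scale (adjusted p = 0.00120). AT1G61590, annotated as a protein kinase superfamily protein, had 14.5 and 15.8 CPM in cml39 libraries, against 35.6 and 36.6 CPM in wt libraries (-1.25 ± 0.12, adjusted p = 0.000292). Libraries of 1 label were nearly level for both genes. AT4G34600, annotated as an uncharacterized protein, had 4.93 and 9.96 CPM in cml39 libraries, against 20.1 and 17.7 CPM in wt libraries (-1.35 ± 0.29, adjusted p = 0.00849; -1.94 without cml39 2). AT2G16385, annotated as an aspartate carbamoyltransferase, had 4 and 9 counts in cml39 and 12 and 11 counts in wt, groups that overlap, and its difference of -0.50 ± 0.65 did not pass (adjusted p = 0.579).

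Of 8 genes for the aliphatic part of suberin 7 fell, and KCS20 did not pass. CYP86A1, the omega-hydroxylase of root suberin fatty acids, had 4.13 and 3.78 CPM in cml39 libraries, against 31.7 and 22.4 CPM in wt libraries. It fell 6.84-fold, a log2 change of -2.77 ± 0.22 (adjusted p = 0.000127). CYP86B1, which hydroxylates very long chains, had 1.21 and 2.30 CPM in cml39 libraries, against 5.93 and 3.97 CPM in wt libraries (-1.51 ± 0.38, adjusted p = 0.0157; adjusted p = 0.137 without wt 1). GPAT5, an acyltransferase that joins acyl groups to glycerol, had 0.956 and 1.75 CPM in cml39 libraries, against 6.34 and 5.64 CPM in wt libraries (-2.15 ± 0.33, adjusted p = 0.00202). The groups did not overlap for these 3 genes.

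The fatty acyl reductases that make the primary alcohols of suberin all fell. FAR1 had 12.1 and 8.15 CPM in cml39 libraries, against 35.3 and 30.3 CPM in wt libraries (-1.70 ± 0.20, adjusted p = 0.000587). FAR4 had 1.21 and 1.15 CPM in cml39 libraries, against 8.21 and 5.45 CPM in wt libraries (-2.53 ± 0.32, adjusted p = 0.000805). FAR5, which lies 9545 bases from FAR4 on the same strand of chromosome 3, had 0.402 and 0.985 CPM in cml39 libraries, against 7.09 and 4.26 CPM in wt libraries (-3.04 ± 0.46, adjusted p = 0.00184; -3.81 without cml39 2). In all 3 the highest library was wt 1. FAR4 and FAR5 share no run of 50 bases of transcript.

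The elongases KCS2 and KCS20 build very long chains. KCS2 had 2.72 and 4.27 CPM in cml39 libraries, against 12.5 and 7.22 CPM in wt libraries, and fell by 1.51 ± 0.33 (adjusted p = 0.00926; adjusted p = 0.0820 without wt 1). KCS20 had 303 and 197 CPM in cml39 libraries, against 169 and 195 CPM in wt libraries, a log2 difference of 0.46 ± 0.19 that did not pass (adjusted p = 0.0950). It passed as higher in DESeq2 (adjusted p = 0.0438), with no filter on low counts (adjusted p = 0.0281) and without cml39 2 (0.74, adjusted p = 0.00154). The 2 transcripts share 4 runs of 50 bases. Over all 8 aliphatic genes, of which KCS20 makes up most, the sum was 272 ± 75.5 CPM in cml39 and 275 ± 1.56 CPM in wt (SD, n = 2). Without KCS20 the other 7 summed to 22.5 ± 0.219 CPM in cml39 and 93.2 ± 19.7 CPM in wt.

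FACT, the acyltransferase that links caffeic acid to fatty alcohols, fell most of the 31 tested members. It had 8 and 6 counts in cml39 libraries, against 316 and 176 counts in wt libraries, which is 0.402 and 0.328 CPM in cml39 libraries, against 11.9 and 8.42 CPM in wt libraries. Its level was 27.3-fold lower, a log2 change of -4.77 ± 0.34 (adjusted p = 9.79e-05). ASFT, which transfers ferulic acid to the fatty chains of suberin, had 8.55 and 12.1 CPM in cml39 libraries, against 21.2 and 16.0 CPM in wt libraries (-0.85 ± 0.22, adjusted p = 0.0172; adjusted p = 0.134 without wt 1). Groups overlapped for neither.

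The 3 ABC transporters needed for suberin in roots and seed coats all fell. ABCG2 had 1.11 and 0.985 CPM in cml39 libraries, against 13.4 and 7.99 CPM in wt libraries, 10.2-fold lower (-3.35 ± 0.34, adjusted p = 0.000334). ABCG20 had 1.26 and 1.48 CPM in cml39 libraries, against 7.43 and 5.45 CPM in wt libraries (-2.24 ± 0.30, adjusted p = 0.00101). ABCG6 had 2.36 and 5.20 CPM in cml39 libraries, against 15.2 and 11.1 CPM in wt libraries (-1.81 ± 0.35, adjusted p = 0.00510; -2.47 without cml39 2). In each, wt 1 was the highest library. Their sum was 6.19 ± 2.07 CPM in cml39 and 30.3 ± 8.11 CPM in wt (SD, n = 2).

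Of 5 MYB factors that promote suberin deposition 2 fell, 1 did not pass and 2 were too low to be tested. MYB92 had 3.12 and 4.60 CPM in cml39 libraries, against 9.04 and 9.47 CPM in wt libraries (-1.26 ± 0.24, adjusted p = 0.00483). MYB93, also known from lateral root development, had 2.26 and 2.90 CPM in cml39 libraries, against 6.79 and 5.02 CPM in wt libraries (-1.20 ± 0.28, adjusted p = 0.0114; adjusted p = 0.125 without wt 1). The groups of both were separate. MYB53 had 3 and 8 counts in cml39 and 34 and 16 counts in wt, a difference of -1.81 ± 0.64 that did not pass (adjusted p = 0.0563); it passed without cml39 2 (-2.73, adjusted p = 0.0173). MYB39 had 0 and 4 counts in cml39 and 17 and 6 counts in wt, and MYB41 had 0 and 6 counts in cml39 and 10 and 3 counts in wt.

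Levels per exon length allow members to be compared with each other. KCS20 had 113 CPM per kb in cml39 and 82.0 in wt, the highest of the 33. In wt it was followed by CASP1 at 29.3 CPM per kb, ESB1 at 27.8, AT4G34600 at 21.1 and AT1G61590 at 20.4. CASP1 ranged between 18.0 and 40.6 CPM per kb in the 2 wt libraries, and the other 3 means lie inside that range. In cml39 SCR followed KCS20, at 17.5 CPM per kb, with CASP1 at 4.98; in wt SCR had 15.2.

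The 2 wt libraries differed in opposite ways for strip and suberin genes. All 8 Casparian strip genes were higher in wt 2, with CPM ratios of wt 2 over wt 1 between 1.07 for RBOHF and 3.10 for CASP4 and a median of 2.17. The ratio was at least 1.5 in 7 of the 8, and in 3.78% of all tested genes with counts in both libraries. Of the 13 suberin synthesis and export genes 12 were lower in wt 2, with a median ratio of 0.710 over the 13. Of these, 4 were at least 1.5-fold higher in wt 1, as were 5.10% of all tested genes. SHR, SCR and MYB36 had ratios of 0.828, 0.984 and 0.999. The ratios of GSO1, AT1G61590, AT4G34600 and AT2G16385 were 1.05, 1.03, 0.883 and 1.17. Each ratio compares 2 single libraries and has no test.

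The sums differ in size by the wt library they are set against. The mean CASP sum of cml39 was 3.90-fold below wt 1 and 9.64-fold below wt 2. For suberin synthesis and export without KCS20 the folds were 4.46 and 3.25, and over all 13 genes, where KCS20 makes up most of the sum, they were 1.19 and 1.12. Between the cml39 libraries, 5 of 8 Casparian strip genes and 7 of 13 suberin genes were higher in cml39 2.

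**Figure D3:**
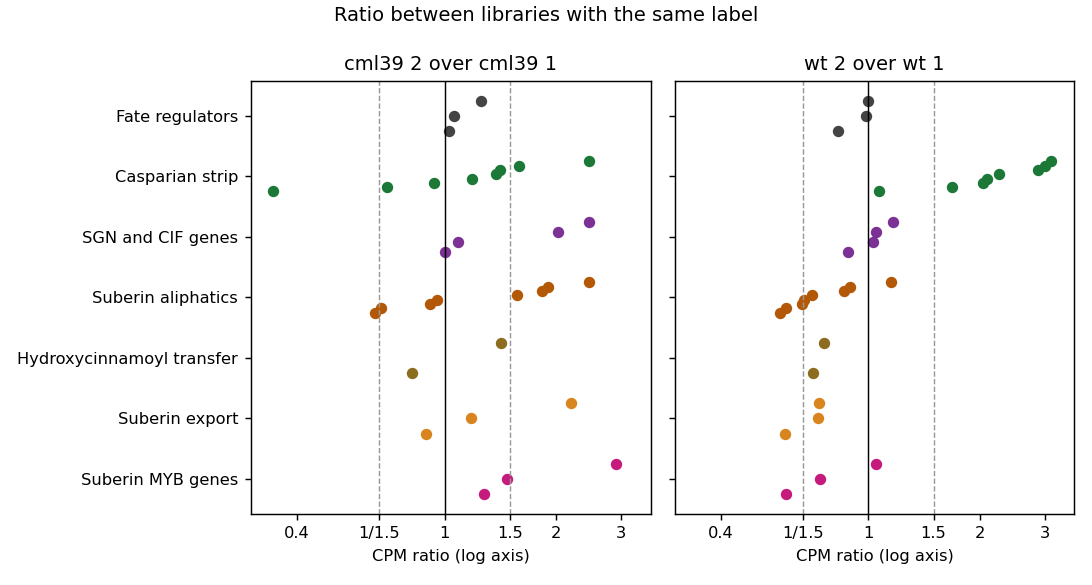
CPM ratio (log axis) of replicate 2 over replicate 1 for the tested members by role, in cml39 (left) and wt (right); each point is 1 gene. In wt the Casparian strip genes lie between 1.07 and 3.10, and the suberin synthesis and export genes other than KCS20 between 0.578 and 0.890.

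Further genes linked to the same barriers, not among the 33, went both ways. Of 21 genes chosen from knowledge of the pathway, all tested, 11 fell and 3 rose, with a median of -0.95. The shares over all tested genes were 21.6% lower and 19.3% higher. The peroxidase genes RCI3 (-3.00 ± 0.27), AT1G44970 (-4.20 ± 0.70), AT4G11290 (-2.33 ± 0.22), AT5G51890 (-1.62 ± 0.17) and AT5G66390 (-1.11 ± 0.18) fell. So did the laccase gene LAC3 (-1.84 ± 0.25), the uclacyanin gene UCC1 (-1.13 ± 0.26), AT5G50150 (-1.40 ± 0.17), and the transcription factor genes MYB68 (-1.26 ± 0.35), MYB9 (-1.28 ± 0.39) and SCZ (-0.95 ± 0.26). Between the wt libraries these 21 genes were divided, with 9 higher in wt 2 and 12 higher in wt 1. The ratio of wt 2 over wt 1 was at least 1.5 in 3, AT1G44970 (3.08), UCC1 (1.71) and LAC3 (1.65), while 2 were at least 1.5-fold higher in wt 1, and RCI3 (0.916), AT4G11290 (0.855), AT5G51890 (0.761) and AT5G50150 (0.805) were below 1.

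The 3 genes of that list that rose were the transporter genes ABCG1 and ABCG11 and CYP94B3, for an enzyme that oxidises jasmonoyl-isoleucine. ABCG1 had 23.5 and 19.2 CPM in cml39 libraries, against 8.14 and 7.37 CPM in wt libraries (1.46 ± 0.17, adjusted p = 0.000586). ABCG11, which acts in cutin and wax export of shoots as well as in roots, had 169.7 and 165 CPM in cml39 libraries, against 95.1 and 118 CPM in wt libraries (0.65 ± 0.13, adjusted p = 0.00516). CYP94B3 had 5.63 and 4.21 CPM in cml39 libraries, against 1.35 and 1.48 CPM in wt libraries (1.80 ± 0.30, adjusted p = 0.00293).

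Other genes of the endodermis and of neighbouring root tissues were set beside the members. Of 7 further endodermal genes 4 fell and 2 rose, where 21.6% and 19.3% of all tested genes did. Their median was -0.93, with sums of 122 and 111 CPM in cml39 and 116 and 110.4 CPM in wt. JKD (-1.77 ± 0.16) and MGP (-1.81 ± 0.37), zinc finger partners of SHR and SCR, fell, as did EDA4 (-1.55 ± 0.27), while SCL3, a GRAS gene, rose (1.81 ± 0.17, adjusted p = 0.000243). Of 11 stele and xylem genes 10 fell, with a median of -2.07 and sums of 97.5 and 105 CPM in cml39 and 779 and 632 CPM in wt. NPF7.3, a nitrate transporter gene of the stele, had 14.6 and 15.8 CPM in cml39 libraries, against 405 and 324 CPM in wt libraries (-4.59 ± 0.15), and PHO1, a phosphate exporter gene, changed by -2.02 ± 0.13.

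Genes of the outer root tissues were mostly lower as well. Of 9 genes of epidermis, cortex and cap 8 fell, where 21.6% of all tested genes did. Their median was -2.34, with sums of 8.55 and 10.8 CPM in cml39 and 64.5 and 47.8 CPM in wt. COBL9, a root hair gene, changed by -3.99 ± 0.48. It had 6 and 8 counts in cml39 and entered the test through wt, as did other genes of the stele, outer root and meristem lists. Counts and medians over tested genes of these lists therefore lean towards genes that are lower. Of 5 root meristem genes 1 fell, WOX5, the quiescent centre gene, with 0 counts in both cml39 libraries and 15 and 11 counts in wt, at least 6.95-fold lower with 3 counts over the group as the floor. The meristem genes PLT1, with 6 and 55 counts in cml39 and 58 and 45 in wt, and PLT2, with 0 and 21 in cml39 and 30 and 19 in wt, differed between the cml39 libraries. With genes at 0 set to their bound, the median of the 5 was -0.86, which is PLT2's value, and -1.86 without cml39 2, when 3 fell. Without cml39 1 it was -0.07, and without wt 1 WOX5 was no longer called. The sums were 9.91 and 15.8 CPM in cml39 and 18.1 and 15.4 CPM in wt. Of 8 photosynthesis genes 2 rose and 0 fell in edgeR (3 at an unadjusted p under 0.05), where 19.3% of all tested genes rose. Their median was 0.23, with sums of 47604 and 45024 CPM in cml39 and 35556 and 36086 CPM in wt. TMM scaling enters these sums, as CPM over all genes summed to 1.11e+06 and 1.08e+06 in cml39. In wt it summed to 9.04e+05 and 9.25e+05. The list was not recounted under upper quartile scaling. Without wt 1, 5 of the 9 outer root genes and 2 of the 7 further endodermal genes were called lower; photosynthesis genes called higher numbered 1 without cml39 2. The part of these root-wide differences in the members' result was not tested.

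**Figure D4:**
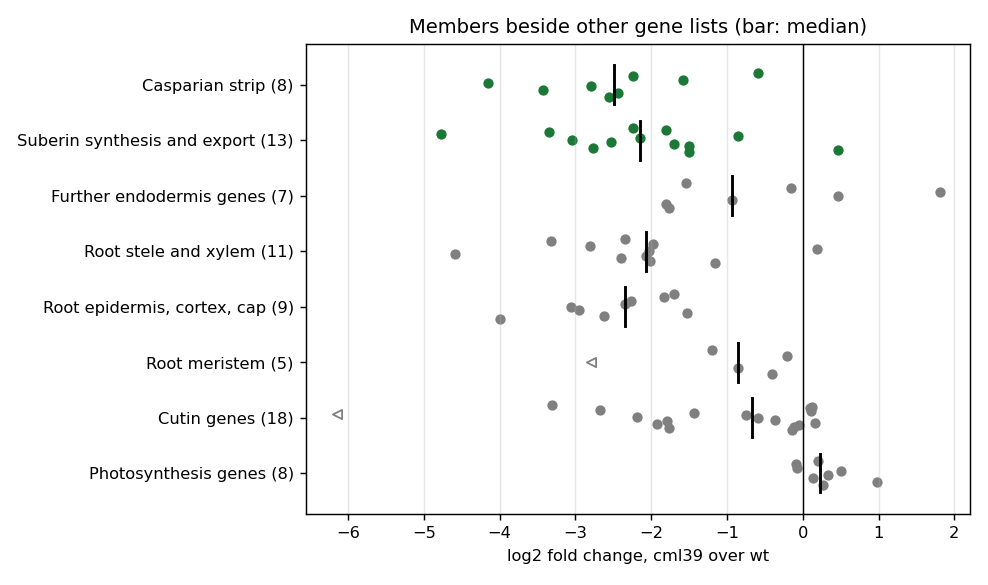
Log2 fold change of cml39 over wt for tested genes of the Casparian strip and of suberin synthesis and export beside other lists, with a bar at each median; open triangles are genes with 0 counts in cml39, drawn at the bound set by 3 counts. The medians are -2.50 and -2.15 for the members, -2.07 for stele and xylem, -2.34 for the outer root and 0.23 for photosynthesis.

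Overlapping transcripts limit some values, since the strand setting of the counting is not given in the sources used here. CASP1, CASP5, ESB1, PER64, GSO1, KCS2, FAR1, FAR4, ASFT and ABCG2 overlap a gene on the other strand, and without strand the reads of such a pair cannot be told apart. The partners of PER64, KCS2 and GSO1 had more counts than these members in all 4 libraries, and those of CASP5, ASFT and ABCG2 in the cml39 libraries only. AT5G15300, which overlaps CASP5, had 27 and 17 counts in cml39 and 27 and 19 in wt. AT2G37362, which overlaps ABCG2, had 207 and 145 counts in cml39 and 223 and 148 in wt. AT5G42190, which overlaps PER64, had 2155 and 1640 counts in cml39 and 1706 and 1600 in wt. AT1G04210, which overlaps KCS2, had 1662 and 1446 counts in cml39 and 1507 and 1160 in wt, and both partners were higher in cml39 (log2 changes 0.50 and 0.54). AT4G20150, which overlaps GSO1, had 795 and 682 counts in cml39 and 1361 and 1035 in wt and fell as GSO1 did, by 0.38 on the log2 scale (adjusted p = 0.0251). AT2G36090, which overlaps CASP1, had 28 and 22 counts in cml39 and 89 and 51 in wt. AT5G41050, which overlaps ASFT, had 361 and 468 counts in cml39 and 296 and 218 in wt. MYB92 shares 106 of its 1484 runs of 50 bases with AT5G10278, which overlaps it on the same strand and had 0 and 5 counts in cml39 and 15 and 25 in wt. MYB53 likewise overlaps AT5G65225 on its strand.

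Of the 33 members, 15 were lower and 0 higher in the authors' deposited table at an adjusted p under 0.05, against 8.76% and 7.23% of its genes with an adjusted p. All 15 in the authors' deposited table were also lower in edgeR, which called 11 more. The authors' deposited table called 7 of the 8 Casparian strip genes, with log2 changes of the CASP genes between -1.84 for CASP4 and -2.84 for CASP5. Of the 13 suberin synthesis and export genes the authors' deposited table called 3, FAR1 (-1.40), FACT (-2.49) and ABCG2 (-1.91). CYP86A1 stood at -0.92 in the authors' deposited table (adjusted p = 0.308), against -2.77 in edgeR. The 2 differ in method and may differ in the counts used. The deposited mean normalised signal was 8.34 for MYB41, which had 0, 6, 10 and 3 counts in cml39 1, cml39 2, wt 1 and wt 2. It was 11.1 for MYB39, which had 0, 4, 17 and 6 counts. The cause of these differences was not tested.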

How the data were processed

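The authors deposited whole-number read counts per gene for the 4 libraries. Per the submitters' processing notes CASAVA 1.8, FastQC, STAR 2.5.2b, DESeq2 1.14.1 and build TAIR10 were used; their roles, the annotation and the strand setting are not given in the sources used here. The authors' deposited comparison table holds a mean normalised signal, a log2 fold change with its standard error, a Wald score, and p-values, per the file headers; which libraries entered it is not given in the sources used here.

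The counts were fitted with edgeR 4.0.16 under R 4.3.3: filterByExpr, TMM, quasi-likelihood F test, two-sided, Benjamini-Hochberg over 19834 genes. Steps were tested on simulated data. Alternatives were DESeq2 1.42.0, limma-voom (limma 3.58.1), other scalings and filters, a robust fit, a replicate block, and each library left out. The limit of 3 counts covers counting error only. RefSeq TAIR10.1, used for symbols, positions and promoters, held 32548 of the identifiers and lacked 285. Named are all members, every further barrier gene that passed, and up to 4 genes of each other list by lowest p; PLT1 was named after its values were seen. The values of 1 member are not reported here by name. The members and lists were chosen with earlier results of these data known.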

Additional observations from a re-analysis of the deposited data

How the results depend on the processing

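Members called lower numbered 25 to 27 under the 8 alternatives that keep all 4 libraries and 21 to 27 with 1 library left out, and 19 of the 26 were called lower under every one of these. Members called higher numbered 0 to 1 with 1 library left out, 1 with no filter on low counts, 1 with DESeq2 and 1 with a crossed replicate block. Genes called over the whole table numbered 4177 to 8364 with 1 library left out (1997 to 3943 higher, 2180 to 4421 lower), fewest without wt 1; the cause was not tested. AT2G16385 lay between -1.25 and 0.0217 with 1 library left out, the last value, without cml39 1, having the opposite sign. Replicate numbers are shared by label only, and the differences between replicates correlated across genes at -0.118 between the genotypes. With the replicate block 6744 genes were called and 26 members were lower; the crossed pairing, chosen after seeing the data, called 8696 genes, with 26 members lower. The further lists with a library left out were added after seeing the data. With 1 library left out the lone library of its label is assumed to vary like the other pair. At this depth, differences in MYB39 and MYB41 were not detectable.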

Other observations

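Cutin, the polyester of shoot surfaces, is built by relatives of the suberin enzymes. Of 20 cutin genes 18 were tested, of which 11 fell and 0 rose in edgeR (11 differed at an unadjusted p under 0.05). Among all tested genes 21.6% fell and 19.3% rose. The median log2 change of the 18 was -0.68, also with the gene at 0 set to its bound. DCR, an acyltransferase, had 5.33 and 6.73 CPM in cml39 libraries, against 31.3 and 23.6 CPM in wt libraries (-2.19 ± 0.20, adjusted p = 0.000232). HTH (-1.44 ± 0.16) and MYB106, a MYB gene of epidermal cell shape and cuticle (-3.31 ± 0.55), fell as well. AT5G33370 had 0 counts in both cml39 libraries and 175 and 91 in wt, at least 71.1-fold lower with 3 counts over the group as the floor. AT5G33370 and MYB106 were among several cutin genes that entered the test through wt, so counts over tested cutin genes lean towards genes that are lower. Without wt 1, 6 cutin genes were called lower. The summed level of the 20 genes was 947 and 921 CPM in cml39 and 1016 and 1042 CPM in wt.

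Abscisic acid promotes suberin deposition in roots. Of 8 genes of abscisic acid response and synthesis 3 rose and 0 fell, with a median of 0.12. The shares over all tested genes were 19.3% and 21.6%. ABI1, a phosphatase that restrains the response, had 72.0 and 68.8 CPM in cml39 libraries, against 34.2 and 39.9 CPM in wt libraries (0.93 ± 0.12, adjusted p = 0.000864). ABI5, a bZIP factor (1.25 ± 0.30), and RD29B (0.85 ± 0.23) rose too. NCED3, an enzyme of abscisic acid synthesis, had 0.805 and 1.53 CPM in cml39 and 3.11 and 2.15 CPM in wt and did not pass (-1.18 ± 0.42, adjusted p = 0.0569). Without wt 1, 1 of the 8 was called higher, and 1 was called lower without either cml39 library.

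Of 6 seed coat genes 3 were tested and 0 passed in edgeR, with TT10 at an unadjusted p under 0.05; without cml39 1, 1 was called higher and 1 lower. Of 10 seed storage and embryo genes 2 were tested and 0 passed, with EM6 at an unadjusted p under 0.05; without cml39 1, 1 was called higher. Of 6 flower and anther genes PI was tested and rose (4.57 ± 0.19), with 175 and 159.6 CPM in cml39 libraries, against 5.74 and 8.42 CPM in wt libraries. The other 5 were not tested and had at most 2 counts in a cml39 library and at most 4 in a wt library, too few for a direction.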
